A study of Mus musculus with 32 samples.

Results

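The YAP and TAZ pathway genes described here were 9 genes of the Hippo pathway, picked by symbol from the 53700 genes of a kidney RNA-sequencing count table. They were *Yap1* (ENSMUSG00000053110) and *Wwtr1* (ENSMUSG00000027803), which encode the co-activators YAP and TAZ, their DNA-binding partner *Tead1* (ENSMUSG00000055320), and the kinase gene *Lats2* (ENSMUSG00000021959). The scaffold genes *Amotl2* (ENSMUSG00000032531) and *Ajuba* (ENSMUSG00000022178) and the target genes *Ccn1* (ENSMUSG00000028195), *Ccn2* (ENSMUSG00000019997) and *Ankrd1* (ENSMUSG00000024803) completed the set. All 9 genes were among the 13961 genes expressed highly enough to be tested, with a log2 CPM (read counts scaled to a common library size) over 1 in at least 25% of the kidneys. Poly(A) RNA was measured in snap-frozen kidney tissue of 32 male C57BL/6 iKspCre-*Pkd1*del mice, in 8 wildtype, 12 PKD and 12 PKD + Salsalate kidneys. According to the paper the kidneys had been bisected before freezing, so a sample need not hold a whole kidney. All mice carried a tamoxifen-inducible Cre driven by the Ksp-cadherin promoter, which is active in tubule epithelium, and LoxP sites around exons 2 to 11 of *Pkd1*, the gene of polycystin-1 that is mutated in most patients with polycystic kidney disease (PKD). The PKD mice (labelled *Pkd1* KO) received 150 mg/kg tamoxifen by gavage on postnatal days 18 and 19, stayed on normal chow and were 95 days old. The PKD + Salsalate mice were treated and aged in the same way, with chow containing 2.5 g/kg salsalate, a salicylate drug that activates AMPK, from day 81 for 2 weeks. The wildtype mice had the same alleles, received no tamoxifen and were 109 days old per the labels, so that deletion of *Pkd1*, tamoxifen and age cannot be told apart in any comparison with them. The mice with PKD had been selected by the authors for a similarly mild cystic phenotype, and each library came from 1 mouse.

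YAP and TAZ carry signals from cell shape, stretch and cell contact to the nucleus. When the Hippo kinases MST and LATS are active, they phosphorylate YAP and TAZ, which then stay in the cytoplasm or are degraded. Without that phosphorylation YAP and TAZ enter the nucleus, bind TEAD proteins and switch on genes such as *Ccn1*, *Ccn2*, *Ankrd1* and, as a negative feedback, *Lats2* and *Amotl2*. The mRNA level of *Yap1* or *Wwtr1* is therefore not a measure of the activity of the proteins, and neither phosphorylation nor localization was measured here. In the kidney the pathway is known from nephron development, tubule injury and fibrosis, and it has been studied in cystic epithelium.

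Between 11193136 and 109807664 reads were counted on genes in each kidney, with group medians of 15737652 in wildtype, 16769080 in PKD and 18482662 in PKD + Salsalate. *Pkd1* itself measured 68.7 ± 10.9 CPM in wildtype (SD, n = 8), 92.1 ± 15.1 CPM in PKD (n = 12) and 92.7 ± 15.1 CPM in PKD + Salsalate (n = 12). This count covers the whole gene and tissue, so it is no check of the deleted exons. The names of 5 of the 8 wildtype libraries ended in R and those of 3 did not, for which the labels give no reason. No PKD or PKD + Salsalate library name ended in R, so for those 5 libraries the ending and the group cannot be told apart. Only the 3 without R were named like the libraries of the mice with PKD. The wildtype sets stood apart: the summed level of 8 proximal tubule markers was 7877 to 10240 CPM with R and 14545 to 17130 CPM without, against 9968 to 13594 CPM in PKD. Where a set changed a call of the 9 genes, the value against that set is given as well. For the lists described, the counts between PKD and wildtype are given against each set. PKD replicate 10 held 3773 CPM of 8 liver transcripts against at most 93.0 CPM in the other PKD kidneys, and leaving it out changed no call of the 9 genes. Marker genes of cell types moved as well: all 8 fibroblast, all 8 macrophage and 7 of 8 injured tubule markers were higher in PKD than in wildtype, where 24.1% of all genes were. Of the 7, *Havcr1*, *Krt20* and *Sox9* were under the level of the filter in every wildtype kidney, passed it only through the *Pkd1*-deleted kidneys and so had to differ. Against the wildtype libraries with R alone 6 fibroblast and 7 injured tubule markers were higher, where 30.7% of all genes were. Against those without R 7 fibroblast and 8 injured tubule markers were higher, where 20.9% of all genes were. All 8 macrophage markers were higher against each set. Fewer cells of a type and less RNA per cell cannot be told apart in such bulk samples.

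Between PKD and wildtype, 8 of the 9 genes differed significantly (edgeR's quasi-likelihood test, adjusted p under 0.05), where 49.1% of all genes tested did. Of these, 6 were higher in PKD, *Ccn1*, *Ankrd1*, *Ajuba*, *Amotl2*, *Ccn2* and *Tead1*, against the same 24.1% of all genes, and 2 were lower, *Yap1* and *Wwtr1*, against 25.0% of all genes. Against the 5 libraries with R alone, 5 were higher and 2 lower, where 59.6% of all genes were called, 30.7% as higher and 28.9% as lower. Against the 3 libraries without R alone, 7 were higher and none was lower, where 40.8% of all genes were called, 20.9% as higher and 19.9% as lower. The median log2 fold change of the 9 genes was 0.38, and that of all genes tested was -0.01. The same 8 genes were called in the same directions between PKD + Salsalate and wildtype, where 44.9% of all genes were called, 21.8% as higher and 23.2% as lower. These 2 comparisons use the same wildtype kidneys, and their values are therefore given side by side. Between PKD + Salsalate and PKD none of the 9 genes was called by edgeR, where 0.580% of all genes were. DESeq2, which called more genes in all, called none of the 9 either. P-values measure the spread between the mice of 1 experiment.

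**Figure D1:**
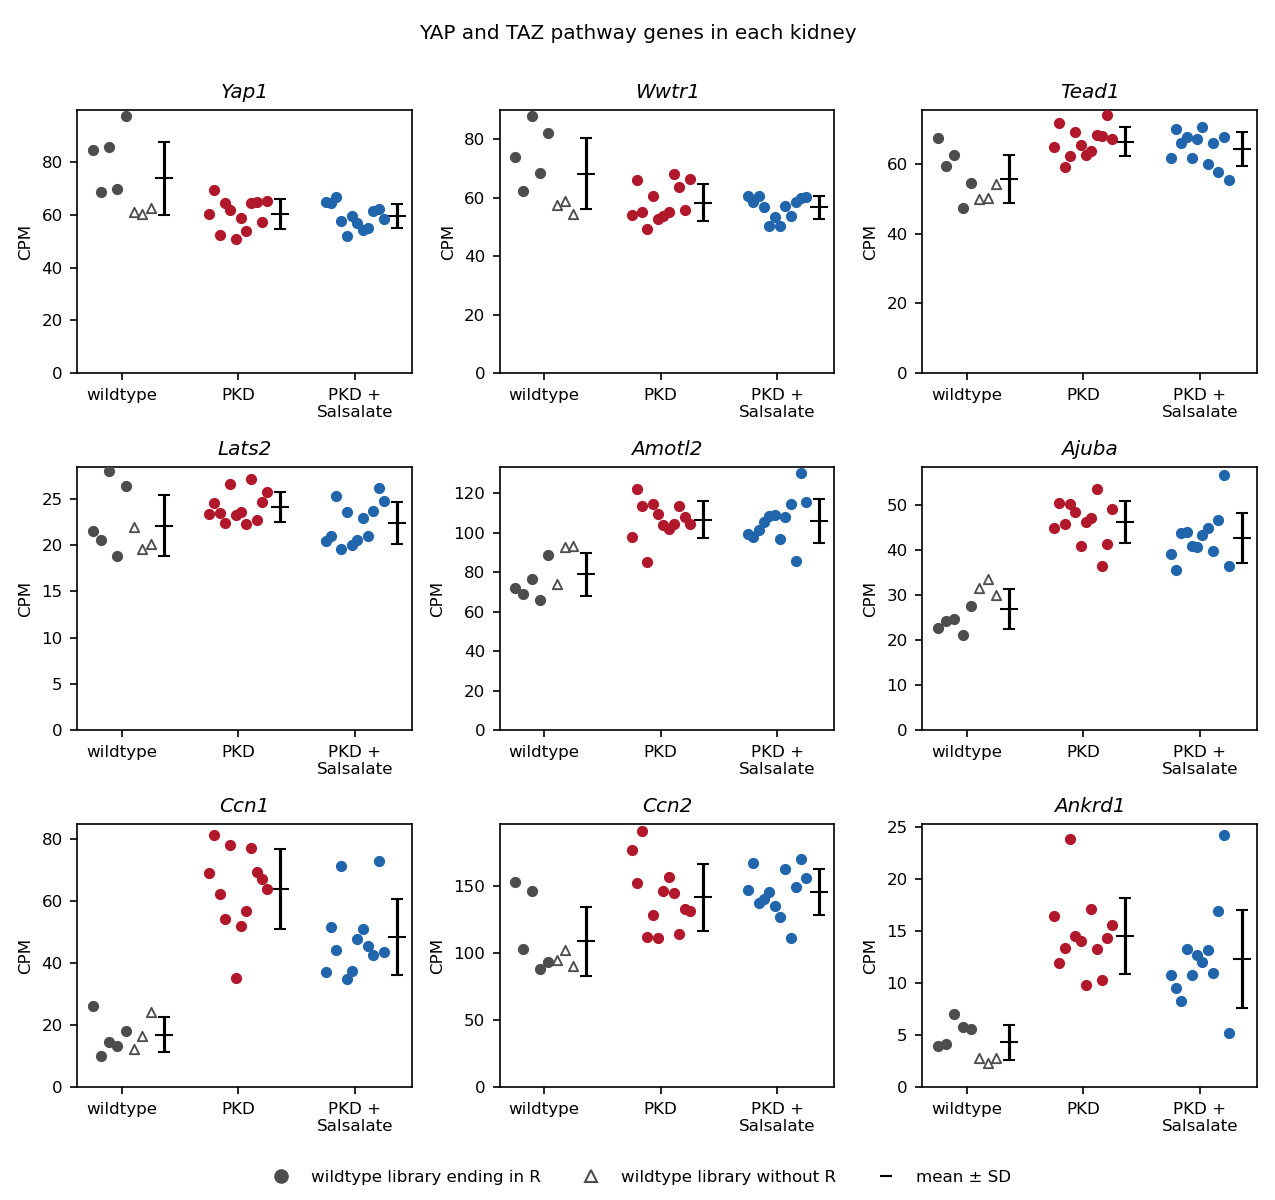
Level of each YAP and TAZ pathway gene in each kidney, in CPM on linear axes that start at 0, by group (8 wildtype, 12 PKD and 12 PKD + Salsalate kidneys). Each point is 1 kidney, open triangles are the 3 wildtype libraries whose names do not end in R, and black bars are the mean ± SD of the group. All PKD kidneys lie above all wildtype kidneys for *Ccn1*, *Ankrd1* and *Ajuba*, a separation whose share over all genes was not counted. The wildtype triangles of *Yap1* and *Wwtr1* lie within the PKD range.

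The largest differences were those of the target genes *Ccn1* and *Ankrd1*. *Ccn1* encodes a secreted matricellular protein of the CCN family that binds integrins, and it lies on chromosome 3 (GRCm39, 145352720-145355738, minus strand). It measured between 10.0 and 26.0 CPM in the wildtype kidneys (median 15.5) and between 35.2 and 81.3 CPM in the PKD kidneys (median 65.4). Every PKD kidney was thus above every wildtype kidney. The share of all genes tested with such a separation was not counted, for this gene or for those below. The difference was 3.81-fold (95% interval 2.99 to 4.84), or 1.93 ± 0.17 on the log2 scale (SE, adjusted p = 6.04e-11, edgeR). *Ankrd1* encodes an ankyrin-repeat protein of muscle and stressed cells and lies on chromosome 19 (36089352-36097506, minus strand). It had the lowest level of the 9 genes in CPM, between 2.3 and 7.0 CPM in wildtype (median 4.1) and between 9.8 and 23.8 CPM in PKD (median 14.2). Its difference was 3.44-fold (2.51 to 4.73), again without overlap between the groups (adjusted p = 7.57e-08, edgeR). Both calls held against each set of wildtype libraries, with log2 fold changes of 1.98 and 1.85 for *Ccn1* and of 1.45 and 2.43 for *Ankrd1* against the libraries with and without R.

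*Ccn2* encodes connective tissue growth factor and lies on chromosome 10 (24471333-24474900, plus strand). It measured between 87.9 and 153.2 CPM in wildtype (median 98.3) and between 110.9 and 190.8 CPM in PKD (median 138.7). The groups overlapped, and 3 of the 12 PKD kidneys were above the highest wildtype kidney. The difference of *Ccn2* was 1.30-fold (1.12 to 1.52, adjusted p = 0.00455), much smaller than that of its paralog *Ccn1*. With the wildtype group limited to the libraries ending in R, the log2 fold change of *Ccn2* was 0.28 and no longer passed the test (adjusted p = 0.0565, edgeR), and against those without R it was 0.56 (adjusted p = 0.0014). Per kilobase of exon, the mean level of *Ccn2* in wildtype was 34.1 CPM/kb against 8.27 CPM/kb for *Ccn1*, whereas in PKD they were 44.4 and 31.4 CPM/kb.

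The bases before the start sites of *Ccn1*, *Ankrd1* and *Yap1* are shown because the target genes with the largest differences and *Yap1* differ in their matches to GGAATG, the core letters of the TEAD motif (CATTCC on the other strand). Each line holds the 250 bases upstream of the start of the gene's canonical transcript in GENCODE, read 5′ to 3′ on the strand of the gene from GRCm39, with matches to GGAATG or CATTCC in capitals.
Ccn1, chr3:145355739-145355988, minus strand: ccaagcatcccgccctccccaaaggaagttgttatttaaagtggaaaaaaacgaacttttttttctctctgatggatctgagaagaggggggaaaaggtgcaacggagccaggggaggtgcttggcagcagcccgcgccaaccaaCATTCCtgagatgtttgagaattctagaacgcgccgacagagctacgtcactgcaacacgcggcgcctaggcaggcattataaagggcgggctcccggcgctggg
Ankrd1, chr19:36097507-36097756, minus strand: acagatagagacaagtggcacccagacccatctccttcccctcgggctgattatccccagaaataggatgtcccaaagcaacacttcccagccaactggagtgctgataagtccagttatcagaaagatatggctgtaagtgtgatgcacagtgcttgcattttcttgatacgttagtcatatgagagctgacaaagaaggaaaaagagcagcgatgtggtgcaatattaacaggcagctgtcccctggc
Yap1, chr9:8004662-8004911, minus strand: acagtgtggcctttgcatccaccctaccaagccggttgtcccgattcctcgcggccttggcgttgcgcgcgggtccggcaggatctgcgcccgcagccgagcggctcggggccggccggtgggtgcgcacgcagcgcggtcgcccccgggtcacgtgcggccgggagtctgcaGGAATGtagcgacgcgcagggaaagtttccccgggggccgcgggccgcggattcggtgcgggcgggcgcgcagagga
*Ccn1* held 1 match, with its first base at -105 from the start, on the minus strand of the gene, and *Yap1* held 1 at -77. Of the other members, *Amotl2* held 2 matches, at -235 and -135, *Wwtr1* held 1 at -218 and *Tead1* held 1 at -193, and *Ankrd1*, *Lats2* and *Ajuba* held none in this window. In all, 5 of the 8 genes examined held a match, where 11.8% of the 12899 protein-coding genes tested did. None of the 8 windows held TGANTCA, the letters of an AP-1 site, or a CArG box, which 4.54% and 1.14% of all windows held. A match is a run of letters and no measured binding, and TEAD proteins also bind enhancers that lie outside these windows.

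The scaffold genes were also higher in PKD. *Ajuba* encodes a LIM protein of cell junctions that restrains LATS kinases (chromosome 14, 54804787-54815027, minus strand). It measured between 21.0 and 33.6 CPM in wildtype (median 26.1) and between 36.6 and 53.7 CPM in PKD (median 46.7), so that no PKD kidney fell within the wildtype range. Its difference was 1.71-fold (1.52 to 1.94, adjusted p = 5.60e-09, edgeR). *Amotl2* encodes an angiomotin that holds YAP at junctions and is itself a target of YAP (chromosome 9, 102593836-102610617, plus strand). It measured between 65.8 and 93.2 CPM in wildtype (median 75.1) and between 85.3 and 121.9 CPM in PKD (median 106.1). All PKD kidneys except 1 were above the highest wildtype kidney, and the difference was 1.35-fold (1.22 to 1.5, adjusted p = 1.15e-05, edgeR). For both genes the difference passed the test against each set of wildtype libraries, with log2 fold changes of 0.95 and 0.54 for *Ajuba* and of 0.52 and 0.29 for *Amotl2* against the libraries with and without R.

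The co-activator genes went the other way, but only against part of the wildtype libraries. *Yap1* (chromosome 9, 7932000-8004661, minus strand) measured between 60.2 and 97.4 CPM in wildtype (median 69.2) and between 50.9 and 69.3 CPM in PKD (median 61.0). The 3 wildtype libraries without R had a mean of 61.3 ± 1.15 CPM (SD, n = 3), close to the PKD mean of 60.3 ± 5.78 CPM, whereas the 5 libraries ending in R had a mean of 81.3 ± 12.1 CPM. Over all wildtype kidneys *Yap1* was 0.819-fold in PKD (0.735 to 0.912, adjusted p = 0.00238, edgeR). Its log2 fold change was -0.43 against the libraries ending in R and -0.03 against those without (adjusted p = 0.758). *Wwtr1* (chromosome 3, 57363067-57483331, minus strand) measured between 54.5 and 88.1 CPM in wildtype (median 65.4) and between 49.4 and 68.0 CPM in PKD (median 55.4). It was 0.857-fold in PKD over all wildtype kidneys (0.770 to 0.954, adjusted p = 0.0155, edgeR). Its log2 fold change was -0.36 against the libraries ending in R and, with the opposite sign, 0.03 against those without (adjusted p = 0.82). The call of *Wwtr1* was also lost without wildtype replicate 3 (-0.16, adjusted p = 0.0644) or without wildtype replicate 5 (-0.18, adjusted p = 0.0529), which both end in R. Per kilobase of exon *Yap1* was the more abundant of the pair in wildtype, with 7.87 against 5.77 CPM/kb, and the order was the same in PKD, with 6.43 against 4.93 CPM/kb.

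*Tead1* encodes the TEAD transcription factor to which YAP and TAZ bind (chromosome 7, 112278522-112506014, plus strand). It measured between 47.5 and 67.6 CPM in wildtype (median 54.4) and between 59.3 and 74.2 CPM in PKD (median 66.4). All 12 PKD kidneys were above the wildtype median, and 5 were above the highest wildtype kidney. The difference was 1.19-fold (1.10 to 1.30, adjusted p = 0.000693, edgeR) and passed the test against each set of wildtype libraries. *Lats2*, the kinase that phosphorylates YAP and TAZ, was the gene without a call (chromosome 14, 57926960-57995845, minus strand). It measured between 18.8 and 28.0 CPM in wildtype (median 21.1) and between 22.4 and 27.2 CPM in PKD (median 23.6). Its log2 fold change was 0.13 (-0.01 to 0.27, adjusted p = 0.11, edgeR) over all wildtype kidneys and 0.23 (adjusted p = 0.0266) against the libraries without R alone. It was called without wildtype replicate 3 (0.19, adjusted p = 0.0203) or without wildtype replicate 5 (0.17, adjusted p = 0.042). The level of *Lats2* is uncertain, because 2955 bases of its exons are shared on the same strand with the gene model *Gm49361*, which had no count in any kidney, and HTSeq by default counts reads that lie in 2 genes on neither.

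**Figure D2:**
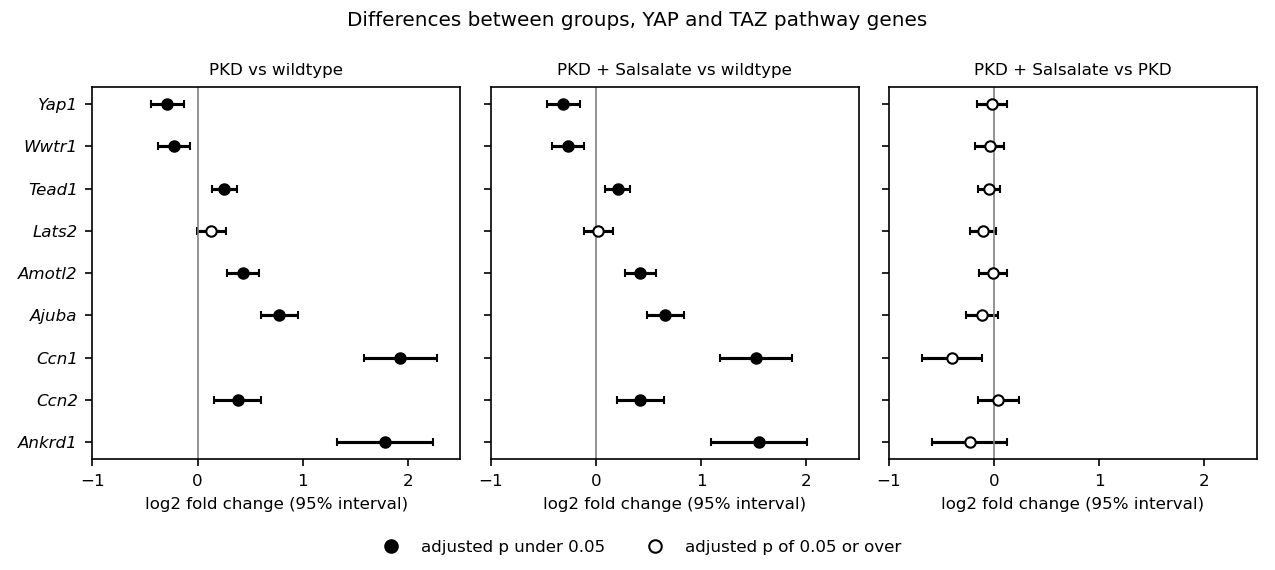
Log2 fold change of each YAP and TAZ pathway gene (vertical axis) in the 3 comparisons, with 95% intervals. Filled points passed an adjusted p of 0.05 (edgeR, 32 kidneys in 1 fit) and open points did not. The left and middle panels share the wildtype kidneys and show *Ccn1* and *Ankrd1* farthest to the right, and in the right panel all 9 points are open, with *Ccn1* farthest from 0 at -0.40.

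Salsalate treatment for 2 weeks did not significantly change any of the 9 genes relative to untreated PKD, and 1 of them, *Ccn1*, had an unadjusted p under 0.05 (edgeR), as had 10.3% of all genes tested (1436 of 13961). *Ccn1* measured between 34.8 and 72.8 CPM in PKD + Salsalate (median 44.9), within the range of the PKD kidneys except for 1 kidney, and 10 of the 12 treated kidneys were below the PKD median. Its mean was 48.3 ± 12.2 CPM (SD, n = 12) against 63.8 ± 13.0 CPM in PKD. The log2 fold change of *Ccn1* was -0.40 with a 95% interval of -0.69 to -0.12 (p = 0.00671, adjusted p = 0.208, edgeR), and it lay between -0.47 and -0.37 when each kidney was left out in turn. *Ankrd1* measured between 5.2 and 24.2 CPM with treatment (median 11.5). Both the lowest and the highest value of the gene in the mice with PKD were thus from treated kidneys, and the log2 fold change was -0.23 (-0.59 to 0.13, adjusted p = 0.737, edgeR). *Ajuba* measured between 35.5 and 56.7 CPM (median 42.2), with 11 of 12 treated kidneys below the PKD median and a log2 fold change of -0.12 (-0.27 to 0.03, adjusted p = 0.657, edgeR).

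For the other members the intervals were narrow and included 0. The log2 fold change with salsalate was -0.02 for *Yap1* (-0.16 to 0.12), -0.04 for *Wwtr1* (-0.18 to 0.10) and -0.05 for *Tead1* (-0.15 to 0.06). It was -0.11 for *Lats2* (-0.23 to 0.02), -0.01 for *Amotl2* (-0.14 to 0.12) and 0.04 for *Ccn2* (-0.16 to 0.24). Changes of a size within these intervals were not excluded with 12 kidneys a group. *Ccn2* measured between 110.9 and 169.8 CPM in the treated kidneys (median 146.1), and its paralog *Ccn1* had the only interval of the 9 genes without 0.

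The treated kidneys differed from wildtype in the same 8 genes as the untreated PKD kidneys. *Ccn1* was 2.88-fold higher in PKD + Salsalate (2.27 to 3.65, adjusted p = 9.09e-09, edgeR), with all 12 treated kidneys above the wildtype range, and *Ankrd1* was 2.93-fold higher (2.14 to 4.02, adjusted p = 1.17e-06), with 11 of 12 above it. *Ajuba* was 1.58-fold (1.40 to 1.78), *Amotl2* 1.34-fold (1.21 to 1.49), *Ccn2* 1.34-fold (1.15 to 1.56) and *Tead1* 1.15-fold (1.06 to 1.26) the wildtype level. *Yap1* was 0.807-fold and *Wwtr1* 0.832-fold, and *Lats2* had a log2 fold change of 0.02 (-0.12 to 0.16, adjusted p = 0.797, edgeR). Against the wildtype libraries without R alone, the log2 fold changes of *Yap1* and *Wwtr1* in the treated kidneys were -0.05 and -0.01 and were not called. Against those ending in R, that of *Tead1* was 0.14 and was not called (adjusted p = 0.0687).

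*Ccn1* is also an immediate early gene, whose transcript rises within minutes of stimulation, and other genes of that kind differed between PKD and wildtype as well. Of 10 immediate early genes listed, 9 were tested, 8 were higher in PKD than in wildtype (24.1% of all genes were) and 1, *Ier3*, was lower. Against the wildtype libraries with R alone 8 were higher and 1 lower, where 30.7% and 28.9% of all genes were. Against those without R 7 were higher and 1 lower, where 20.9% and 19.9% of all genes were. *Fos* and *Egr2* were under the level of the filter in every wildtype kidney, passed it only through the *Pkd1*-deleted kidneys and so had to differ. *Atf3* rose from 2.23 ± 1.05 CPM in wildtype to 8.90 ± 2.64 CPM in PKD, a log2 fold change of 2.06, and *Junb* from 25.5 ± 2.89 to 57.7 ± 14.3 CPM, a log2 fold change of 1.18. With salsalate all 9 had negative log2 fold changes, between -0.83 and -0.12, and 7 had an unadjusted p under 0.05, where 10.3% of all genes did, but none passed the test. *Atf3* was closest, with a log2 fold change of -0.68 (adjusted p = 0.0571, edgeR), and it was called in the fits that kept either only the wildtype set with R (adjusted p = 0.0261) or only the set without R (adjusted p = 0.0159). The summed level of the 10 genes was 124 to 169 CPM in wildtype, 195 to 406 CPM in PKD and 175 to 262 CPM in PKD + Salsalate. Their part in the differences of *Ccn1* was not tested.

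Marker genes of several cell types differed between PKD and wildtype too, not all in 1 direction. The summed level of 8 fibroblast markers was 328 to 481 CPM in wildtype, 732 to 1269 CPM in PKD and 697 to 1603 CPM in PKD + Salsalate. That of 8 injured tubule markers was 169 to 230, 321 to 447 and 226 to 543 CPM in the same order, and that of 8 macrophage markers was 148 to 232, 337 to 537 and 303 to 603 CPM. Of 8 endothelial markers 3 were higher and 3 lower in PKD, and of 8 podocyte markers none was higher and 5 were lower, where 24.1% of all genes were higher and 25.0% lower. These counts depended on the wildtype libraries: 3 and 4 endothelial markers were higher and lower against those with R alone and 4 and 1 against those without, and 0 and 4 against 1 and 3 podocyte markers in the same order. Of all genes, 30.7% were higher and 28.9% lower with R, and 20.9% were higher and 19.9% lower without. No marker on these 5 lists was at 0 in every kidney. None was called between PKD + Salsalate and PKD in the fit of all kidneys (edgeR), where 0.580% of all genes were. In that fit 3 injured tubule markers and 1 podocyte marker had an unadjusted p under 0.05, as had 10.3% of all genes. For 6 smooth muscle markers the summed level was 108 to 220 CPM in wildtype and 268 to 345 CPM in PKD. For 6 thick ascending limb and distal tubule markers it was 3300 to 5468 and 3135 to 4193 CPM in the same order. For 8 collecting duct markers it was 498 to 891 and 619 to 995 CPM, and for 8 T cell markers 6.9 to 17.0 and 10.7 to 25.1 CPM. The part of all these cell types in the levels of the 9 genes was not tested.

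Among 33 other genes of the pathway, 31 were tested, 7 were higher and 8 were lower in PKD than in wildtype (24.1% and 25.0% of all genes were), and their median log2 fold change was -0.05. With the wildtype group limited to the libraries with R, 6 were higher and 14 lower, and without R 10 were higher and 4 lower, so that the balance of directions depended on the set. Of all genes, 30.7% were higher and 28.9% lower with R, and 20.9% were higher and 19.9% lower without. Of the TEAD and VGLL genes, *Tead2* (8.19 ± 2.36 to 10.7 ± 1.67 CPM, log2 fold change 0.40) and *Vgll4*, a cofactor that competes with YAP for TEAD proteins (0.30), were higher. *Tead3*, *Tead4* and *Vgll3* were not called over all wildtype kidneys. Of the 5 tested, 2 were higher and 1 lower against the libraries with R alone, and 2 were higher and none lower against those without. *Vgll1* and *Vgll2* were too low to be tested. Per kilobase of exon, *Tead3* and *Tead1* were the most abundant TEAD genes in wildtype, with 4.66 and 4.11 CPM/kb, ahead of *Tead2* with 1.5 and *Tead4* with 0.42 CPM/kb. Of the 10 genes of the kinase cascade, none was higher and 3 were lower over all wildtype kidneys, where 24.1% and 25.0% of all genes were. The 3 were *Stk4*, which encodes the Hippo kinase MST1 (-0.28), *Mob1b*, a LATS cofactor (-0.22), and *Taok2*, a kinase upstream of MST (-0.17). Against the libraries ending in R alone none of the 10 was higher and 7 were lower, where 30.7% and 28.9% of all genes were. Against those without R 3 were higher and 1 was lower, where 20.9% and 19.9% of all genes were. *Map4k4*, *Stk3* and *Sav1*, singled out after their values were seen, were called in opposite directions, with log2 fold changes of -0.34, -0.50 and -0.18 against the libraries ending in R and 0.47, 0.28 and 0.20 against those without. *Lats1* had a log2 fold change of 0.06 (-0.06 to 0.18, adjusted p = 0.418, edgeR). The calls of *Vgll4*, *Stk4* and *Mob1b* were lost against the wildtype libraries without R, where *Stk4* had a log2 fold change of -0.03, and that of *Tead2* was lost against those ending in R. The call of *Mob1b* was also lost without wildtype replicate 1 or 3.

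Of the 16 upstream regulators and scaffolds, 5 were higher and 5 were lower, shares near the 24.1% and 25.0% of all genes. Against the wildtype libraries with R alone 4 were higher and 6 lower, where 30.7% and 28.9% of all genes were. Against those without R 5 were higher and 3 lower, where 20.9% and 19.9% of all genes were. The giant cadherins *Fat4* and *Dchs1*, which form a ligand and receptor pair between cells, were the ones that increased most, with log2 fold changes of 1.15 (adjusted p = 2.12e-07) and 0.60 (adjusted p = 4.63e-05, edgeR). *Fat4* rose from 6.32 ± 1.96 to 14.2 ± 2.98 CPM, and *Dchs1* from 15.1 ± 1.68 to 22.9 ± 4.35 CPM. *Llgl1*, a gene of basolateral polarity, was also higher (0.31). *Nf2*, the gene of the tumor suppressor merlin that activates LATS kinases at the membrane, fell from 88.9 ± 12.6 to 66.1 ± 10.6 CPM (-0.43, adjusted p = 0.000127, edgeR), and the polarity gene *Patj* had a log2 fold change of -0.41. *Limd1*, a LIM protein gene related to *Ajuba*, had a log2 fold change of -0.45, opposite in sign to that of *Ajuba*. Against the wildtype libraries without R, the calls of *Fat4*, *Dchs1*, *Nf2* and *Patj* remained, and those of *Llgl1* and *Limd1* were lost (-0.06 for *Limd1*). *Amotl1*, an angiomotin gene related to *Amotl2* and singled out after its values were seen, had a log2 fold change of -0.40 over all wildtype kidneys (adjusted p = 0.0157, edgeR). It was called in opposite directions against the libraries ending in R (-0.72) and against those without (0.33).

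A published signature of YAP and TAZ target genes holds 17 genes that are not among the 9 members, of which 16 were tested. In PKD 9 of them were higher than in wildtype and 1 was lower, where 24.1% and 25.0% of all genes were, and their median log2 fold change was 0.25. With only the libraries ending in R as wildtype 10 were higher and 2 lower, where 30.7% and 28.9% of all genes were. With only those without R 8 were higher and 1 lower, where 20.9% and 19.9% of all genes were. *Rbms3*, singled out after its values were seen, was called in opposite directions against the 2 sets (-0.57 and 0.43). *Myof*, which encodes the membrane repair protein myoferlin, rose from 22.5 ± 4.27 to 59.2 ± 6.57 CPM, a log2 fold change of 1.40 with no overlap between the groups (adjusted p = 7.14e-12, edgeR). *F3*, the gene of tissue factor, rose from 13.9 ± 3.84 to 32.0 ± 6.48 CPM (1.20), and *Axl*, a receptor tyrosine kinase gene, from 36.9 ± 4.87 to 64.1 ± 8.78 CPM (0.80). *Igfbp3*, which encodes a binding protein of insulin-like growth factors, was the gene that was lower (-0.34), and its call was lost against the wildtype libraries without R (-0.12). *Foxf2* was too low to be tested. Of the other CCN genes, *Ccn4* rose from 6.54 ± 2.04 to 10.9 ± 1.47 CPM (0.77). *Ccn5* rose from 0.217 to 1.61 CPM (2.81), but it reached the filter through the mice with PKD alone and so had to differ.

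**Figure D3:**
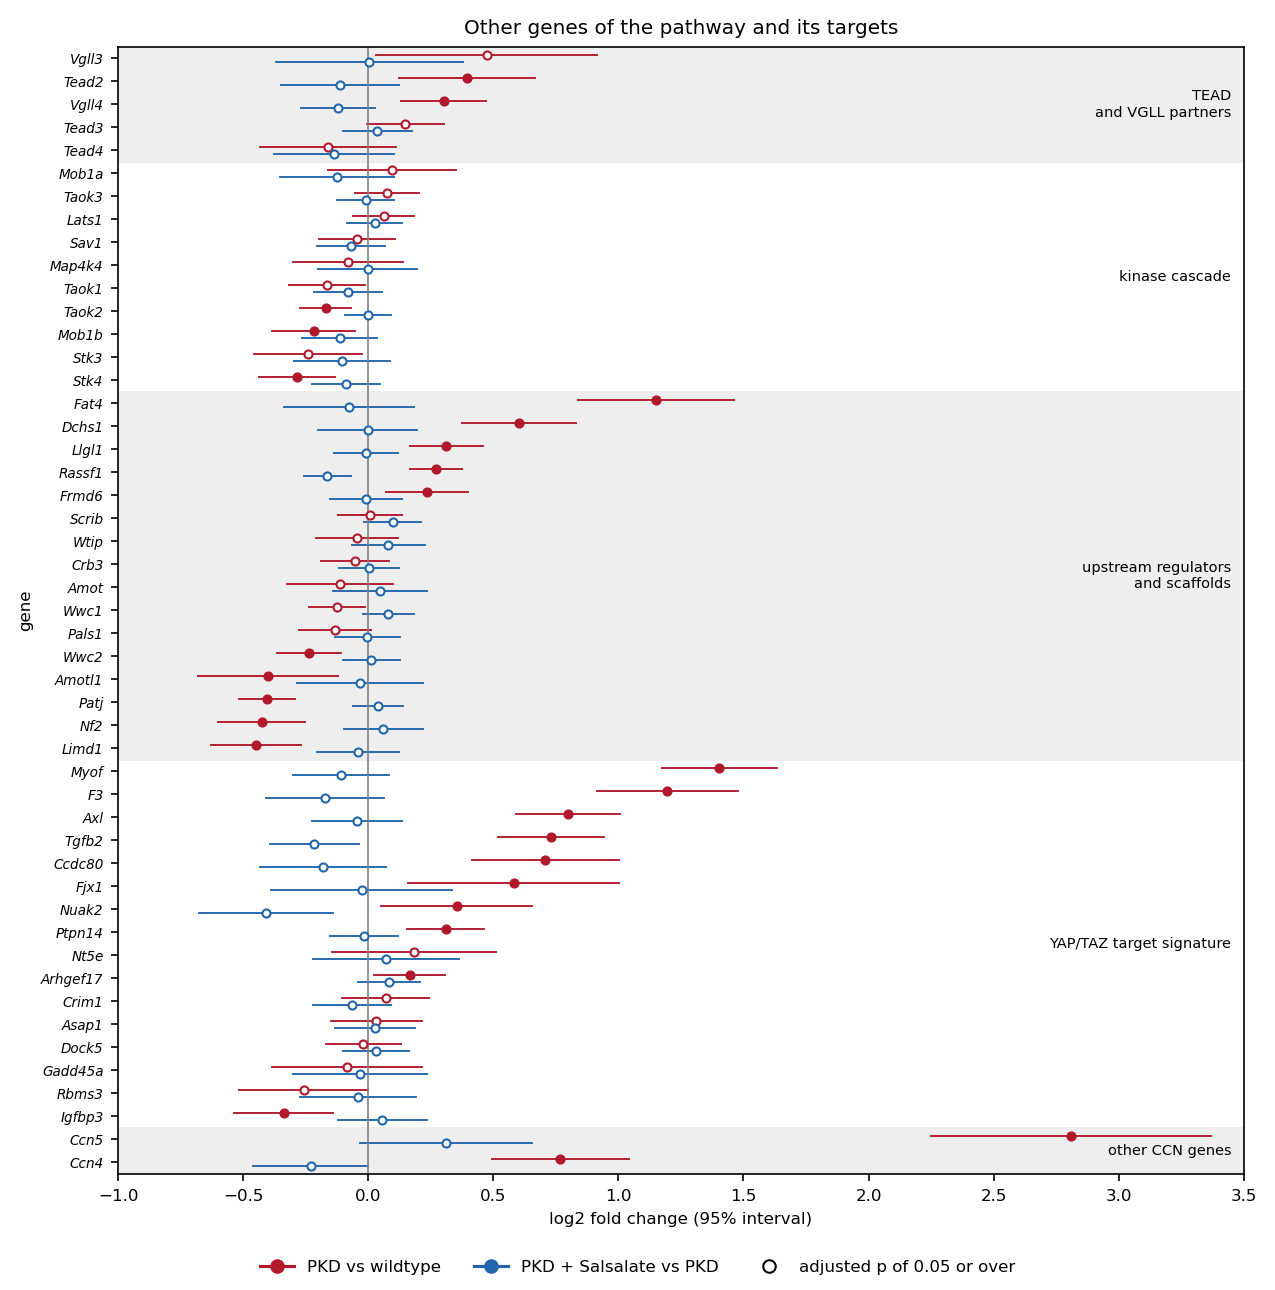
Log2 fold change with 95% interval of the other tested genes of the pathway, of the target signature and of the CCN family (vertical axis), in PKD vs wildtype (red) and PKD + Salsalate vs PKD (blue). Filled points passed an adjusted p of 0.05 (edgeR) and shading separates the lists. Red points spread to both sides of 0 in the pathway lists and mostly to the right in the target signature, and all blue points are open.

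Salsalate did not significantly change any of the 31 other pathway genes or the 16 signature genes in the fit of all kidneys (edgeR), where 0.580% of all genes were called. The smallest adjusted p was 0.0875 for *Rassf1*, a scaffold gene of the Hippo kinases, with a log2 fold change of -0.16 (-0.26 to -0.07, edgeR), and it was the only one of the 31 with an unadjusted p under 0.05. In the signature 2 genes had an unadjusted p under 0.05, where 10.3% of all genes did, and the smallest adjusted p was 0.159 for *Nuak2*, which encodes a kinase related to AMPK. *Nuak2* measured 125 ± 18.2 CPM in PKD and 94.0 ± 21.5 CPM in PKD + Salsalate, with a log2 fold change of -0.41 (-0.68 to -0.14). For this gene 10 of the 12 treated kidneys were below the lowest PKD kidney, and the share of all genes with as little overlap was not counted. DESeq2 called *Rassf1*, and *Nuak2* was called with only the groups compared and with only wildtype libraries without R. *Rassf1* and *Nuak2* were singled out after their values were seen.

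The levels of the 9 genes were compared with each other over the 24 *Pkd1*-deleted kidneys, with the mean of each group removed. Of 36 pairs, 28 had a positive Pearson correlation of log2 CPM, and the share of positive pairs among all genes was not counted. By Pearson's r, 2 of the 36 pairs passed a permutation test within groups (100000 permutations, adjusted over the 36 pairs). *Yap1* and *Wwtr1* varied together, with r = 0.64 (p = 0.00153, adjusted p = 0.0275) and Spearman's rho = 0.66 (p = 0.00094, adjusted p = 0.0338). In the same permutation test their r was 0.61 in PKD alone (adjusted p = 0.271) and 0.71 in PKD + Salsalate alone (adjusted p = 0.182). It was 0.57 without the 2 kidneys farthest from the median of *Yap1* (p = 0.00756, adjusted p = 0.136). In none of these settings was the pair called over the 36 pairs, although r was little changed. *Ankrd1* and *Ajuba* had r = 0.65 (p = 0.00145, adjusted p = 0.0275) but a Spearman's rho of 0.51 that missed the threshold (p = 0.0139, adjusted p = 0.10). Without the 2 kidneys farthest from the median of *Ankrd1* their r fell to 0.43 (p = 0.0597, adjusted p = 0.307), and the pair was no longer called. Their r was 0.36 in PKD alone (adjusted p = 0.531) and 0.82 in PKD + Salsalate alone (adjusted p = 0.0929), and the pair was called in neither. Among the PKD + Salsalate kidneys replicate 11 had the highest values of both genes and replicate 12 the lowest of *Ankrd1*. *Ccn1* and *Ccn2* had r = 0.32, and *Ccn2* and *Ankrd1* r = 0.02, and neither pair passed the test. Wherever libraries share depth or composition, correlations between genes of the same libraries can reflect it.

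**Figure D4:**
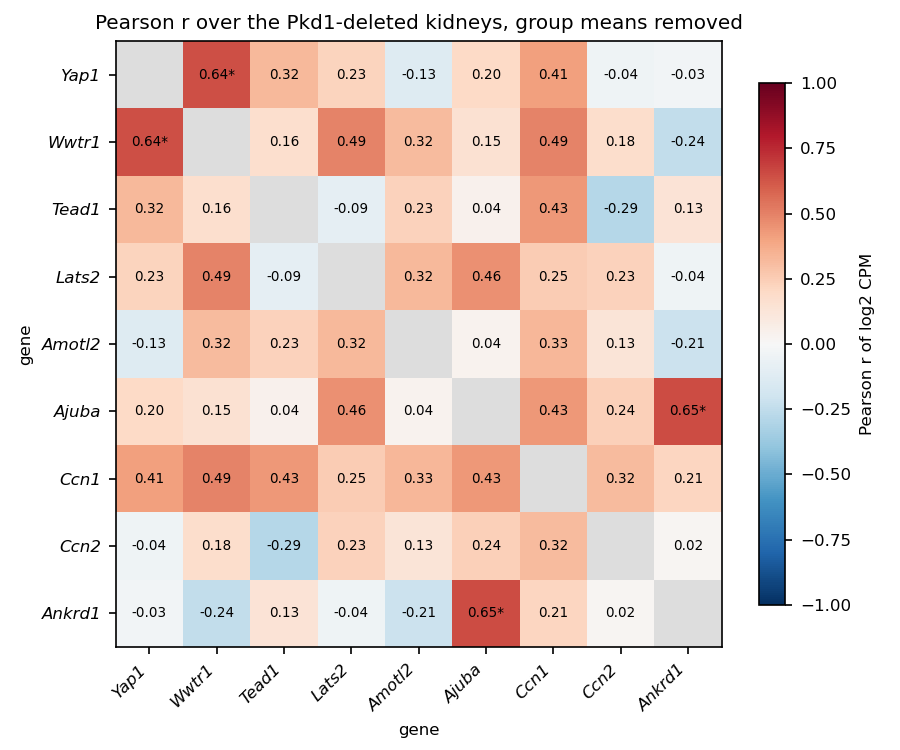
Pearson r of log2 CPM between each pair of YAP and TAZ pathway genes (both axes) over 24 *Pkd1*-deleted kidneys, with group means removed. Colour gives r from -1 to 1, and asterisks mark the 2 pairs with an adjusted p under 0.05, *Yap1* with *Wwtr1* (0.64) and *Ankrd1* with *Ajuba* (0.65).

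The genes whose levels were most like those of each member were found by Pearson's r over all 32 kidneys with group means removed, as a description with no test. For *Yap1* they were *Cebpg* (r = 0.91) and *Rnf146* (0.90), and for *Wwtr1* *Usp25* and *Jak1* (0.87 each). For *Tead1* the first was *Sirt1* (0.74), and for *Lats2* they were *Efnb2* (0.78) and *Dennd6a* (0.75). *Ccn1* was most like *Fam3c* and the endothelial marker gene *Pecam1* (0.71 each), and *Ccn2* most like *Chst15* (0.74) and *Slc43a3* (0.73). *Ankrd1* was most like *Mmp14* (0.87), which encodes a membrane-bound matrix metalloproteinase, and *Bicc1* (0.85), which encodes an RNA-binding protein whose loss causes cystic kidneys in mice. *Amotl2* was most like *Foxk1* (0.78) and *Wdr19* (0.76), and *Ajuba* most like *Cdh3* (0.86), the P-cadherin gene, and *Spns2* (0.84). The difference between the wildtype libraries with and without R remains in these values. In the 24 *Pkd1*-deleted kidneys alone the r was 0.82 for *Yap1* with *Cebpg*, 0.84 for *Ankrd1* with *Mmp14* and 0.81 for *Ajuba* with *Cdh3*, whereas it was 0.48 for *Tead1* with *Sirt1*.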

How the data were processed

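Poly(A) RNA of 32 kidneys was sequenced with a strand-specific kit. According to the paper's methods and the labels, the authors trimmed reads with Cutadapt 2.10, aligned them with STAR 2.7.5a to GRCm39 and counted them per gene by strand with HTSeq 0.12.4 on Ensembl 103. They deposited raw counts without normalization, with 5 summary lines of uncounted alignments per kidney, which were left out; 73.6% to 83.1% of alignments were on genes. At the smallest total, 1 CPM stands for about 11 counts.

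Counts were analysed with edgeR 4.0.16 in R 4.3.3. Of 53700 genes, the 13961 whose log2 CPM exceeded 1 in 25% of kidneys or more were scaled by TMM and fitted in 1 model of 3 groups with the quasi-likelihood test, 2-sided, with Benjamini-Hochberg adjustment over all genes tested and a threshold of 0.05. Fold changes and 95% intervals came from this fit, and levels are TMM-scaled CPM. The scripts were tested on simulated data. Positions, exon lengths and start sites came from GENCODE mouse release 39 on GRCm39, which is not the release the reads were counted on. DESeq2 1.42.0 and other settings were alternatives. The 9 genes, the lists and the tests were chosen with earlier results of these data known. Outside the 9 genes, up to 3 genes a list with the largest change in each direction among those called between PKD and wildtype were named, with the 2 genes most like each member. Immediate early genes with values were chosen after those were seen. The replicate numbers of the labels were checked for pairing and do not pair mice. The upstream window of 1 member and 1 gene most like a member are not reported here.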

Additional observations from a re-analysis of the deposited data

How the results depend on the processing

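The number of members called was 8 between PKD and wildtype, 0 between PKD + Salsalate and PKD and 8 between PKD + Salsalate and wildtype under another scaling, under the Wald test of DESeq2, without a filter on low counts, with only the groups compared, with the replicate number as a block and in all 32 fits without 1 kidney. Against only the wildtype libraries ending in R it was 7, 0 and 7, and against those without R it was 7, 0 and 6. The count of all genes called between PKD + Salsalate and PKD was less stable: 81 in the fit reported, 199 with DESeq2, 195 with only the groups compared, 48 with the replicate block, 145 with only wildtype libraries ending in R, 257 with only those without R and between 39 and 226 when 1 kidney was left out (226 without PKD + Salsalate replicate 11). In that comparison DESeq2 called 1 gene of the pathway list, *Rassf1*, and 1 signature gene, *Nuak2*, was called with only the groups compared and with only wildtype libraries without R. Replicate numbers did not pair the mice, since 2 of 12 pairs of PKD and PKD + Salsalate kidneys had correlated deviations over 0.1, and the replicate block turned the sign of *Lats2* between PKD + Salsalate and wildtype (-0.012). That difference, near 0, was -0.036 with only wildtype libraries ending in R and between -0.0061 and 0.078 without 1 kidney. The log2 fold change of *Wwtr1* between PKD and wildtype was 0.026 with only wildtype libraries without R. Between PKD + Salsalate and PKD that of *Amotl2* lay between -0.034 and 0.016 without 1 kidney. *Ccn5* did not pass the filter in some of these fits and had no value there. The causes were not tested. With no filter the call of *Mob1b* was lost (-0.20). Depth limits genes under a few CPM, such as *Ankrd1* in wildtype and *Ccn5*.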
